A study of Mus musculus with 3 samples.

Results

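Solute carriers are membrane proteins that move ions, metals, nutrients and metabolites across the cell surface and the membranes of organelles. They were followed here in medial edge epithelium from the secondary palate of the mouse, which forms a midline seam when the palatal shelves meet. Members were the probe sets that name a single gene whose symbol begins with Slc and a digit, with the glucose carrier Slc2a1 left out. The rule found 184 probe sets for 150 genes, of 10833 single-gene probe sets and 8251 genes on the arrays. No measured value entered the rule. It also takes in Slc4a1ap, Slc9a3r1 and Slc9a3r2, whose products bind carriers and are not carriers themselves.

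The tissue came from CF-1 mouse embryos at embryonic day 13.5, and no genetic change or added agent is named in the labels. Transforming epithelium had been kept in culture for 24 h after first contact of the shelves, fused epithelium for 12 h, and unfused epithelium (0 h) is listed without culture. Each of the 3 time points had 1 array, on which amplified RNA from enzyme-freed epithelium was hybridised. The number of embryos behind each sample is not stated in the labels. No difference below therefore has replicates, a standard error or a test behind it. Time after contact cannot be told apart from time in culture or from the array.

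Signals were scaled to a common trimmed mean and floored at a scaled signal of 13.5. Where 1 of the arrays compared was at the floor, the fold is a lower limit and reads at least N-fold; where both were, no ratio is given. Because probe sets differ in brightness, signals are compared between arrays for 1 probe set and never between genes. Levels are relative amounts in a tissue sample, so fewer cells of a type and less RNA per cell cannot be told apart.

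The epithelial label was checked against 15 epithelial genes, of which 12, 9 and 12 exceeded the floor at 0, 12 and 24 h. The basal keratins Krt5, Krt14 and Krt15 were at the floor on all 3 arrays, while Trp63 had signals of 75.9, 230 and 67.4 and Cdh1 of 112, 104 and 65.8 at 0, 12 and 24 h. The summed signal of the epithelial genes was 1084, 2522 and 2143, that of 13 palate mesenchyme genes 5156, 8726 and 9624, and that of 9 erythroid genes 7755, 1739 and 1733. Single epithelial and mesenchyme genes went both ways, so neither sum stands for each gene in it. Among epithelial genes Dsp gave 156, 739 and 411, whereas Cldn4 gave 206, 12.8 and 82.6. Among mesenchyme genes Col1a2 gave 289, 1711 and 3224 and Lum 743, 1987 and 1639. In contrast, Mfap2 gave 775, 20.5 and 170 and Dlk1 600, 120 and 629. Macrophage genes summed to 311, 750 and 702, of which Ctss alone gave 42.0, 508 and 278. Endothelial genes summed to 455, 674 and 747, and neural and glial genes to 1177, 654 and 616. Striated muscle genes summed to 735, 1013 and 798. Of these Tnnt1 alone gave 95.2, 585 and 404, whereas Actc1 gave 280, 88.6 and 56.4. The signal of 3' over 5' control probe sets of Gapdh was 0.828 (0 h), 14.9 (12 h) and 12.6 (24 h). That of Actb was 1.02 (0 h), 11.9 (12 h) and 2.97 (24 h). Both controls were higher at 12 and 24 h than at 0 h, but only Actb was much lower at 24 h than at 12 h. The part of these differences in the results below was not tested.

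Carriers of 1 family often share a class of substrate. Slc39 members bring zinc and related metals into the cytosol, and Slc30 members move zinc out of it. Slc12 members carry chloride together with cations, Slc4 members exchange bicarbonate, and Slc25 members serve mostly the inner mitochondrial membrane. In a developing epithelium such proteins set cell volume, pH, metal supply and the feed of metabolism.

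Of the 150 genes, 71 lay above the floor on all 3 arrays, 22 on 2 arrays, 17 on 1 and 40 on none. Above the floor on all 3 were 47.3% of solute carriers and 56.7% of all genes, and on none 26.7% and 20.4%. By array, 96, 84 and 94 members exceeded the floor at 0, 12 and 24 h. These are 64%, 56% and 62.7%, beside 71.2%, 65.5% and 69.6% of all genes. Members at the floor throughout included Slc16a1 and Slc16a7, which carry lactate and pyruvate, the cationic amino acid carrier Slc7a1, the cystine-glutamate exchanger Slc7a11 and the glucose cotransporter Slc5a1. Being at the floor is a limit of these probe sets and arrays and does not show that a gene was silent.

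**Figure D1:**
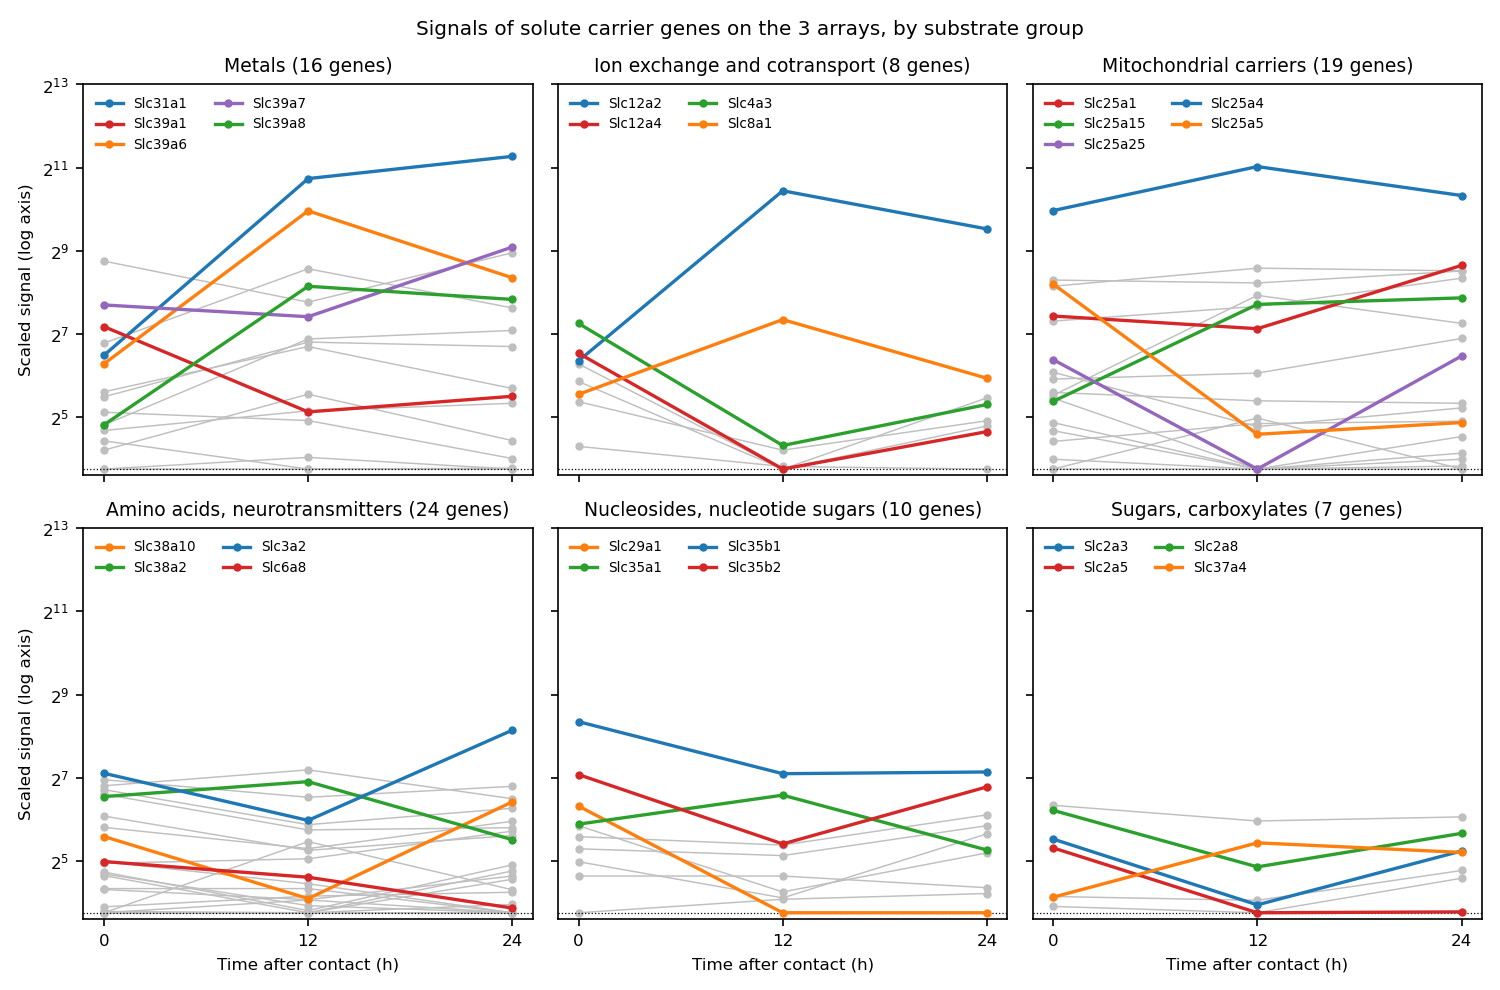
Scaled signals (log axis) of solute carrier genes above the floor on at least 1 array, at 0, 12 and 24 h after contact, in 6 substrate groups; each line is 1 gene, signals at the floor are drawn on the dotted line at 13.5, and there is 1 array per time. Slc31a1, Slc39a6 and Slc39a8 were higher at 12 and 24 h than at 0 h, as was Slc12a2, whereas Slc25a5, Slc4a3 and Slc12a4 were lower.

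Metal carriers had the highest median ratio at 12 h among the groups with more than 2 ratios. Of 16 on the array 15 had a ratio for 12 h over 0 h, and 8 were higher by 2-fold or more at 12 h and 1 lower by 2-fold or more. Over all genes 17.7% were higher by 2-fold or more and 27.3% lower by 2-fold or more. The group median log2 ratio was 1.09, beside -0.21 over all genes. It was 0.37 without probe sets of cross-hybridizing suffix and 0.47 with probe sets averaged, each with 6 genes higher. With values as deposited, 5 metal carriers were higher by 2-fold or more and the group median was 0.28, beside -0.83 over all genes.

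Slc31a1, the high-affinity copper importer, had signals of 89.8 (0 h), 1708 (12 h) and 2474 (24 h). It was 19.0-fold (12 h) and 27.6-fold (24 h) above 0 h. A second probe set of Slc31a1 read 72.8, 88.0 and 118, with log2 ratios of 0.27 and 0.70 against 0 h. After scaling, both sets were lowest at 0 h and highest at 24 h, but the size of the difference rests on 1 of them. The direction of the second set depends on the scaling, because as deposited it read 107.6, 80.7 and 87.2, highest at 0 h.

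Slc39a6, a zinc importer that in zebrafish is needed for epithelial-mesenchymal transition at gastrulation, had signals of 77.9 (0 h), 998 (12 h) and 327 (24 h). It was 12.8-fold (12 h) and 4.20-fold (24 h) above 0 h, and 3.05-fold lower at 24 h than at 12 h. Slc39a8, which imports zinc, manganese, iron and cadmium, had signals of 28.2, 284 and 228 and was 10.1-fold and 8.09-fold higher at 12 and 24 h than at 0 h. Both genes were thus highest at 12 h.

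Slc30a5, which loads zinc into the secretory pathway, had signals of 28.1 (0 h), 118 (12 h) and 136 (24 h), 4.21-fold and 4.85-fold above 0 h. Its second probe set read 12.4, 74.5 and 36.9, the first of these below the floor, which puts 12 h at least 5.51-fold and 24 h at least 2.73-fold above 0 h. The zinc exporter Slc30a4 had signals of 48.9, 104 and 51.7, and the importer Slc39a9 of 18.5, 47.0 and 21.7. These last genes differed by at least 2-fold from 0 h at 12 h and not at 24 h. Slc11a2, the divalent metal transporter that carries iron, had signals of 45.0, 112 and 104, and its second probe set read 37.7, 62.8 and 66.7.

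Slc39a4, the zinc importer of the intestine, gave opposite directions from its 2 probe sets. The brighter set read 110, 380 and 198 at 0, 12 and 24 h, and the other 29.5, 13.7 and 12.6. The brighter one, by which the gene is counted among the 8, has a suffix that marks possible cross-hybridisation, as do both sets of Slc30a5. No direction is given for Slc39a4.

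In the other direction stood the zinc importer Slc39a1, with signals of 145 (0 h), 35 (12 h) and 45.4 (24 h), 4.15-fold lower at 12 h and 3.20-fold lower at 24 h. Its second probe set read 13.7, 10.8 and 9.76, next to the floor. Slc39a7, which releases zinc from the endoplasmic reticulum, had signals of 208, 171 and 546 and was 3.19-fold above 12 h at 24 h. Slc30a3, a zinc carrier of vesicles, had signals of 432, 218 and 496. Slc39a7 and Slc30a3 were thus lowest at 12 h, where Slc39a6 and Slc39a8 were highest.

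At 24 h over 0 h, 6 of 15 metal carriers were higher by 2-fold or more and 2 lower by 2-fold or more, among all genes with 14.5% higher and 17.7% lower. The median was 0.65, beside -0.08 over all genes, and 0.22 without cross-hybridizing suffixes and 0.23 with the mean over probe sets. With values as deposited the median was -0.35, beside -0.98 over all genes. The lower genes were Slc39a1 and Slc30a9, and Slc30a9 had signals of 34.8, 30.3 and 16.1. For 24 h over 12 h, 2 of 15 were higher by 2-fold or more and 3 lower by 2-fold or more, where all genes gave 18.8% and 12.0%.

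**Figure D2:**
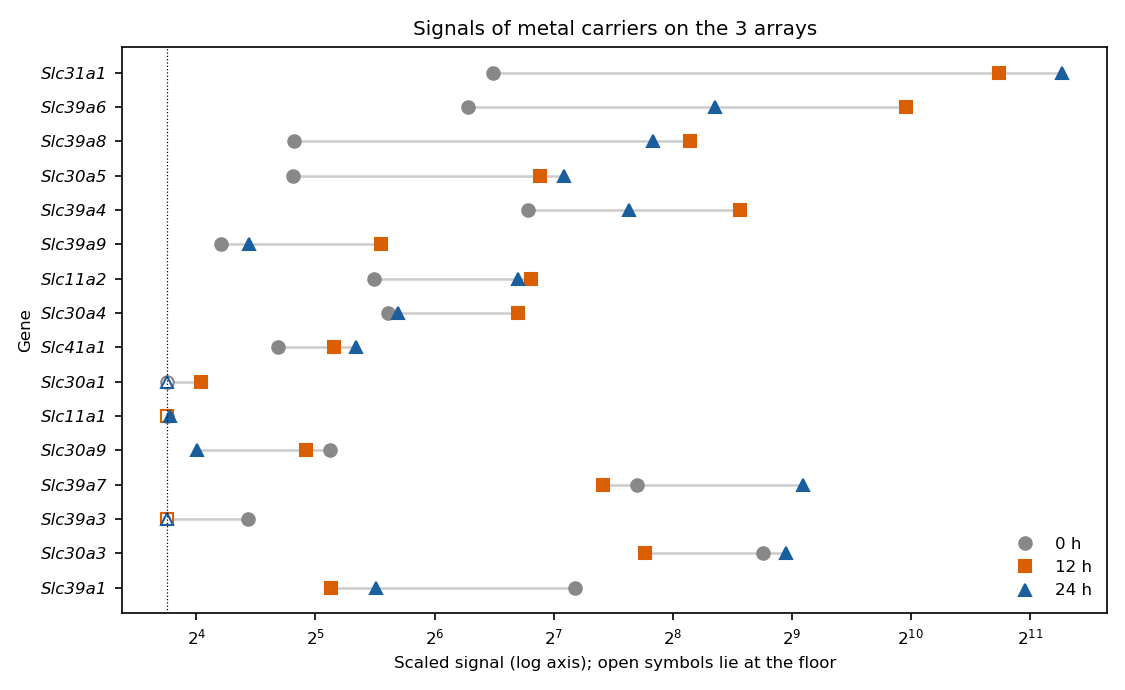
Scaled signals (log axis) of the 16 metal carriers above the floor on at least 1 array, ordered by the ratio of 12 h over 0 h from highest at the top; circles are 0 h, squares 12 h and triangles 24 h, 1 array each, with open symbols at the floor. Slc31a1 spans signals of 89.8 to 2474, and Slc39a1 is the gene with 0 h well to the right of both later arrays.

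The promoters of 5 metal carriers are shown: Slc31a1, Slc39a8 and Slc30a5 for their higher signals at 12 h, Slc39a1 for its lower one, and Slc30a4 because it held the most metal response cores. The metal response element is the site through which the zinc-sensing factor Mtf1 acts. Each runs from 250 bases before to 50 bases after the first listed RefSeq start (build GRCm38.p6), 5' to 3' on the strand of the gene. Capitals mark the core TGCACNC or TGCGCNC of the metal response element and the GC box core GGGCGG, on either strand, where N is any base.
Slc31a1 (chr4:62360451-62360750, plus strand): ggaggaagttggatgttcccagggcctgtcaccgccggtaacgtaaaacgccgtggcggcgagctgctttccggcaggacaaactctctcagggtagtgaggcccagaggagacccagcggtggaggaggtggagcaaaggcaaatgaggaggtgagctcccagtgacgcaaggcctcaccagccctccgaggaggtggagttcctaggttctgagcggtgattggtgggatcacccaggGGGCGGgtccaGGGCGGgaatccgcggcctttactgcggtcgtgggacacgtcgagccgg
Slc39a8 (chr3:135825029-135825328, plus strand): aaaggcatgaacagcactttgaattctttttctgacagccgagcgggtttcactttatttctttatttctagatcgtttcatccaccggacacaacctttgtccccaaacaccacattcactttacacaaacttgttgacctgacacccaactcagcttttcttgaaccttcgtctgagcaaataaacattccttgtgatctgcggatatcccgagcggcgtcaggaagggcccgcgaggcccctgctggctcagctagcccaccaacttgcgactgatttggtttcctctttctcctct
Slc30a5 (chr13:100833378-100833677, minus strand): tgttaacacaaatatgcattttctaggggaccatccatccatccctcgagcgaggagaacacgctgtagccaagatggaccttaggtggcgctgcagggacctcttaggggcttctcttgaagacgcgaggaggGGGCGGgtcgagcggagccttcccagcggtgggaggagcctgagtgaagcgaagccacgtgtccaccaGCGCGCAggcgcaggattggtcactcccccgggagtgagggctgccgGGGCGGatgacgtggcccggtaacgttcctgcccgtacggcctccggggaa
Slc30a4 (chr2:122702614-122702913, minus strand): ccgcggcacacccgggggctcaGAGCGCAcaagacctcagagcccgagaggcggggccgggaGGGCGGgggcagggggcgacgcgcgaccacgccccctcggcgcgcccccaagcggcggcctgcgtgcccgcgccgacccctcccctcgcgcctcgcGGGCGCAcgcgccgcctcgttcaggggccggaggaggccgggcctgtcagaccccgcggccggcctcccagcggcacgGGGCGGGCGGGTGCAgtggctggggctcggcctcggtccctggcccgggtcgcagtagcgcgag
Slc39a1 (chr3:90247942-90248241, plus strand): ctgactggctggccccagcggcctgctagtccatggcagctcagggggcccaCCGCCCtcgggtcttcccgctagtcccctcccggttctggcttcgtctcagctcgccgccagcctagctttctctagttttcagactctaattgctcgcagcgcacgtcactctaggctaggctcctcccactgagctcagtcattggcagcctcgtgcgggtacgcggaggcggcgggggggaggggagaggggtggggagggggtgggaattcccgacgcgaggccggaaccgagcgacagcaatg

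Within these 300 bases the metal response core was found 3 times in Slc30a4 and 1 time in Slc30a5, and it was not found in Slc31a1, Slc39a8 or Slc39a1. The GC box core was found 3 times in Slc30a4, 2 times each in Slc31a1 and Slc30a5, 1 time in Slc39a1 and 0 times in Slc39a8. In Slc30a4 a metal response core and 2 GC box cores overlap in 1 run of capitals. Of the 13 metal carriers with a promoter in the table, 6 held at least 1 metal response core.

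Among 123 members with a promoter, 34.1% held a metal response core and 66.7% a GC box core, beside 25.6% and 35.9% of 27025 promoters of all genes in the table. The members' promoters were also richer in G and C, with medians of 56.5% for the members higher by 2-fold or more at 12 h, 61.2% for those lower by 2-fold or more and 59.5% for the rest with a ratio, beside 52.7% over all genes. A match is a stretch of letters and no evidence of binding. Signals of Mtf1 were 12.8, 4.36 and 26.7 at 0, 12 and 24 h, above the floor at 24 h only.

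Other genes of metal handling were counted from a list. Of 20 on the array 16 had a ratio for 12 h over 0 h, with 5 higher by 2-fold or more and 4 lower by 2-fold or more, beside 17.7% and 27.3% of all genes. Among those that take up copper from Slc31a1, the chaperone of the respiratory chain Cox17 had signals of 151, 961 and 477, while the chaperone Atox1 had 693, 207 and 249 and the copper pump Atp7a, which Atox1 serves, 100, 21.1 and 19.8. Cox17 was 6.38-fold higher at 12 h, Atox1 3.35-fold lower and Atp7a 4.77-fold lower. On the same list, the copper chaperone Ccs had signals of 55.6, 29.1 and 31.9, and Sod1 had 622, 1601 and 1220. The metal-binding metallothioneins differed from each other, with Mt1 at 85.9, 42.4 and 52.7 and Mt2 at 142, 326 and 341. Ferritin heavy chain Fth1 had signals of 1321, 1814 and 1646, and the transferrin receptor Tfrc 340, 168 and 504.

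Carriers of chloride, bicarbonate, sodium, protons and calcium included genes on either side of 0 h at 12 h. Of 17 on the array 8 had a ratio for 12 h over 0 h, 2 higher by 2-fold or more and 5 lower by 2-fold or more, where all genes gave 17.7% and 27.3%. The split depends on the floor: it was 5 higher and 6 lower of 15 with the floor at the 20th percentile, and 6 and 7 of 17 with none. The median log2 ratio was -1.63, and -0.49 and -0.59 with these floors, -0.73 with the floor at the 60th percentile and -0.69 with quantile normalization. Slc12a2, which brings sodium, potassium and chloride into the cell together, had signals of 81.9 (0 h), 1394 (12 h) and 738 (24 h). It was 17.0-fold (12 h) and 9.01-fold (24 h) above 0 h, so that both later arrays were above the first. Among kinases that activate it, Wnk1 differed less, with signals of 220, 259 and 141. Stk39 had 23.9, 12.4 and 15.6, at the floor at 12 h and so at least 1.76-fold below 0 h there.

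Potassium-chloride cotransporters let chloride out of the cell. Slc12a4 had signals of 93.0, 5.34 and 25.2, at least 6.88-fold lower at 12 h and 3.69-fold lower at 24 h. Slc12a7 had signals of 58.1, 10.7 and 44.2, at least 4.29-fold lower at 12 h, with a ratio under 2-fold (log2 -0.39) at 24 h. At 12 h both therefore lay below 0 h by over 2-fold, where Slc12a2 lay above it. Slc12a5, of the same kind, was at the floor on all 3 arrays.

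Chloride-bicarbonate exchangers trade these ions across the cell surface. Slc4a3 had signals of 153 (0 h), 20 (12 h) and 39.6 (24 h), 7.67-fold and 3.87-fold below 0 h. Slc4a2 had signals of 77.9, 11.8 and 27.7, at least 5.76-fold lower at 12 h and 2.82-fold lower at 24 h. Slc9a8, a sodium-proton exchanger of the Golgi, had signals of 41.5, 18.5 and 30.2. These 3 genes were lowest at 12 h.

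Slc8a1, which trades sodium for calcium, had signals of 46.9, 163 and 61.3 and was 3.47-fold above 0 h at 12 h and 2.65-fold lower at 24 h than at 12 h. Its other 2 probe sets were at the floor on all arrays. Slc4a1, the anion exchanger of red cells, had signals of 19.7, 14.1 and 10.3, while erythroid genes summed to 7755, 1739 and 1733. Its log2 ratio for 12 h over 0 h was -0.49. With the 24 h array at the floor, Slc4a1 was at least 1.46-fold below 0 h there. At 24 h over 0 h the group had 1 gene higher by 2-fold or more and 3 lower by 2-fold or more of 8, beside 14.5% and 17.7% of all genes, and with no floor 3 and 3 of 17.

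The sodium gradient that drives many of these carriers is made by the sodium pump. Its subunit Atp1b3 had signals of 376, 1998 and 1421, 5.31-fold and 3.78-fold above 0 h at 12 and 24 h, and Atp1b1 had 30.4, 39.9 and 32.9. Bsg, which brings Slc16 carriers to the cell surface, had signals of 400, 42.6 and 320, 9.37-fold lower at 12 h, and its relative Emb had 34.8, 87.9 and 35. Of 14 genes in this list of partners 12 had a ratio at 12 h, 2 higher by 2-fold or more and 2 lower by 2-fold or more, beside 17.7% and 27.3% of all genes.

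Mitochondrial carriers had shares close to those of all genes. Of 20 on the array 18 had a ratio for 12 h over 0 h, 4 higher by 2-fold or more (22.2%) and 5 lower by 2-fold or more (27.8%), beside 17.7% and 27.3%, and the median log2 ratio was -0.14. The ADP/ATP carriers differed from each other. Slc25a4 had signals of 1002, 2087 and 1288 at 0, 12 and 24 h and was 2.08-fold above 0 h at 12 h. Slc25a5 had 295, 24.1 and 29.3, 12.2-fold lower at 12 h and 10.1-fold lower at 24 h than at 0 h. The Slc25a5 value comes from a probe set whose suffix marks possible cross-hybridisation. Of its other sets 1, also with such a suffix, read 41.5, 2.95 and 8.68, highest at 0 h. The only set without such a suffix was at the floor throughout, so it gives no ratio.

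Slc25a15, which exchanges ornithine for the urea cycle, had signals of 41.7, 210 and 234 and was 5.02-fold and 5.60-fold higher at 12 and 24 h than at 0 h. Slc25a51, which imports NAD, had 46.1, 244 and 153 by a cross-hybridising set and 63.0, 59.2 and 110 by its other set. The first gives a log2 ratio of 2.40 at 12 h and the second -0.09, so its difference at 12 h rests on the first. At 24 h both were above 0 h after scaling, with log2 ratios of 1.73 and 0.80. As deposited, the second read 93.2 at 0 h and 80.9 at 24 h.

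Some mitochondrial carriers had their lowest signal at 12 h and their highest at 24 h. Slc25a25, an exchanger of ATP-magnesium and phosphate, had signals of 83.6, 8.94 and 88.8, at least 6.18-fold lower at 12 h against 0 h and at least 6.57-fold higher at 24 h against 12 h. Slc25a1, the citrate exporter that feeds lipid synthesis, had 173, 140 and 402 by 1 probe set and 63.7, 13.2 and 69.3 by the other. After scaling, both sets of Slc25a1 were lowest at 12 h and highest at 24 h. As deposited, the second set read 94.2, 12.1 and 51.1, highest at 0 h. The dicarboxylate carrier Slc25a10 was highest at 0 h instead, with 44.0, 1.96 and 4.47, and was at least 3.25-fold lower at both later times.

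Other carriers of this family differed less between arrays. The peroxisomal carrier Slc25a17 had signals of 315, 300 and 366, the mitochondrial iron importer Slc25a28 48.4, 42.1 and 40.4, and the pyrimidine nucleotide carrier Slc25a36 284, 384 and 367. The glutathione importer Slc25a39 had 159, 203 and 325, and the acylcarnitine carrier Slc25a20 60.5, 66.8 and 119, both highest at 24 h. At 24 h over 0 h, 4 of 18 were higher by 2-fold or more and 2 lower by 2-fold or more, beside 14.5% and 17.7% of all genes, with a median log2 ratio of 0.29.

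Few amino acid and neurotransmitter carriers passed 2-fold at 12 h. Of 31 on the array 21 had a ratio for 12 h over 0 h, 1 higher by 2-fold or more and 2 lower by 2-fold or more, beside 17.7% and 27.3% of all genes. Among the other 18, Slc1a2, Slc3a1 and Slc7a9 had only a lower limit. For 24 h over 12 h, 4 of 22 were higher by 2-fold or more and 2 lower by 2-fold or more, beside the same 18.8% and 12.0% of all genes. Between 24 h and 0 h the counts were 2 and 3 of 23, beside 14.5% and 17.7%.

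Slc3a2, the heavy chain that takes several amino acid exchangers to the cell surface, had signals of 138, 62.9 and 283. It was 2.20-fold lower at 12 h than at 0 h and 4.49-fold above 12 h at 24 h. Its partner for large neutral amino acids, Slc7a5, had 97.3, 53.7 and 55.7 and did not share the higher 24 h value. Slc38a10 had 48.1, 17.1 and 85.7, 5.00-fold above 12 h at 24 h.

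Slc38a2, a sodium-coupled carrier of neutral amino acids that cells make more of when these run short, had signals of 93.5, 120 and 45.6, 2.64-fold lower at 24 h than at 12 h. Its other 3 probe sets were at the floor on all arrays. The creatine carrier Slc6a8 had 31.7, 24.4 and 14.6, the taurine carrier Slc6a6 112, 146 and 90.3, and the glycine carrier Slc6a9 124, 92.5 and 111. The neutral amino acid carrier Slc1a4 had 105, 58.6 and 77.0. Slc38a4 had 67.6, 38.2 and 48.9, and Slc38a5 had 56.0, 39.3 and 62.0. These last 3 were each lowest at 12 h, by less than 2-fold against 0 h.

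Genes of the amino acid response, the programme that senses such shortage, had 1 of 12 higher by 2-fold or more and 2 lower by 2-fold or more at 12 h over 0 h, beside 17.7% and 27.3% of all genes. Its factor Atf4 had signals of 307, 108 and 153, and its target Asns, asparagine synthetase, 214, 188 and 425. For 24 h over 12 h, 3 of 13 were higher by 2-fold or more and 2 lower by 2-fold or more, beside 18.8% and 12.0%. Asns was thus highest at 24 h, like Slc3a2, while Atf4 was highest at 0 h. Psat1, of the same list, had 214, 334 and 140 and was lowest at 24 h.

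Carriers of nucleosides and nucleotide sugars, which supply the Golgi and endoplasmic reticulum for glycosylation, had 0 of 10 higher by 2-fold or more and 4 lower by 2-fold or more at 12 h over 0 h, beside 17.7% and 27.3% of all genes. The nucleoside carrier Slc29a1 had signals of 79.9, 6.65 and 11.8, at least 5.91-fold lower at both later times. Its second probe set, with a suffix that marks possible cross-hybridisation, was above the floor at 24 h only, at 19.9. That is at least 1.47-fold above 0 h, so the sets of Slc29a1 disagree at 24 h. Slc35b2, which imports the sulphate donor of the Golgi, had 135, 42.5 and 110, and Slc35c2 had 57.6, 19.1 and 36.6. Slc35b1, a carrier of the endoplasmic reticulum, had 326, 137 and 141, 2.39-fold and 2.32-fold below 0 h. Slc35b1 was lower by over 2-fold at both times, and Slc35b2 and Slc35c2 were lower by 2-fold or more at 12 h only.

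The sialic acid donor carrier Slc35a1 went another way, with signals of 59.1, 95.8 and 38.4 and 2.50-fold less at 24 h than at 12 h. Slc35e1 had 24.9, 24.9 and 20.5 by a probe set whose suffix marks possible cross-hybridisation, and 36.0, 12.0 and 15.2 by the other. Whether it was lower at 12 h depends on the set, with log2 ratios of -0.00 and, as a bound, -1.41.

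Carriers of sugars, monocarboxylates and dicarboxylates numbered 13. Of 7 with a ratio for 12 h over 0 h, 1 was higher by 2-fold or more and 3 lower by 2-fold or more, beside 17.7% and 27.3% of all genes. The glucose carrier Slc2a3 had signals of 46.1, 15.4 and 37.8, 2.99-fold lower at 12 h than at 0 h and 2.46-fold above 12 h at 24 h. Slc2a8, an intracellular glucose carrier, had 74.4, 29.0 and 50.7, and the fructose carrier Slc2a5 39.8, 11 and 13.7. Slc37a4, which takes glucose-6-phosphate into the endoplasmic reticulum, had 17.5, 43.3 and 36.9, 2.47-fold and 2.11-fold above 0 h. Slc50a1 had 80.9, 62.3 and 66.7, within 2-fold throughout.

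Among carriers of lipids and choline, Slc44a1, the choline carrier used for membrane synthesis, had signals of 69.9, 319 and 203. It was 4.56-fold (12 h) and 2.90-fold (24 h) above 0 h. Its relatives were steadier, with Slc44a2 at 39.0, 33.9 and 23.6 and Slc44a4 at 74.9, 72.9 and 93.1. The fatty acid carrier Slc27a3 had 13.7, 3.05 and 37.1, and Slc27a4 31.8, 3.93 and 23.3, both at the floor at 12 h. Of 6 genes with a ratio for 24 h over 0 h, 3 were higher by 2-fold or more and 0 lower by 2-fold or more, beside 14.5% and 17.7% of all genes. For 12 h over 0 h it was 1 and 1 of 7, beside 17.7% and 27.3%.

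Of 16 carriers of organic ions, bile acids and peptides, 8 had no ratio for 12 h over 0 h. Slc22a17, a receptor for the iron-binding lipocalin, had signals of 209 (0 h), 30.8 (12 h) and 91.8 (24 h), 6.78-fold and 2.27-fold below 0 h. Slc22a12, which carries urate in the kidney, had 29.7, 63.8 and 78.0. Slc10a3 had 73.5, 46.9 and 64.0, and Slc22a18 44.4, 35.6 and 32.9. Of these, Slc22a17 lay farthest from its 0 h value.

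In the remaining families, the haem carrier Slc48a1 had signals of 55.7, 6.54 and 84.6, at least 4.11-fold lower at 12 h against 0 h and at least 6.25-fold higher at 24 h against 12 h. The vitamin C carrier Slc23a2 had 49.9, 32.8 and 14.5, lowest at 24 h. The folate carrier Slc19a1 had 47.8, 26.9 and 49.5 by 1 set, and 39.1, 2.51 and 7.05 by another, so the sets disagree at 24 h. Only the first of these sets has a suffix that marks possible cross-hybridisation. The phosphate carrier Slc20a1 had 69.9, 49.5 and 65.2, and Slc66a2 had 91.4, 41.2 and 118. The adaptor Slc9a3r1 had 76.1, 41.1 and 76.5 and the adaptor Slc9a3r2 29.5, 23.1 and 34.2, under 2-fold in each comparison.

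**Figure D3:**
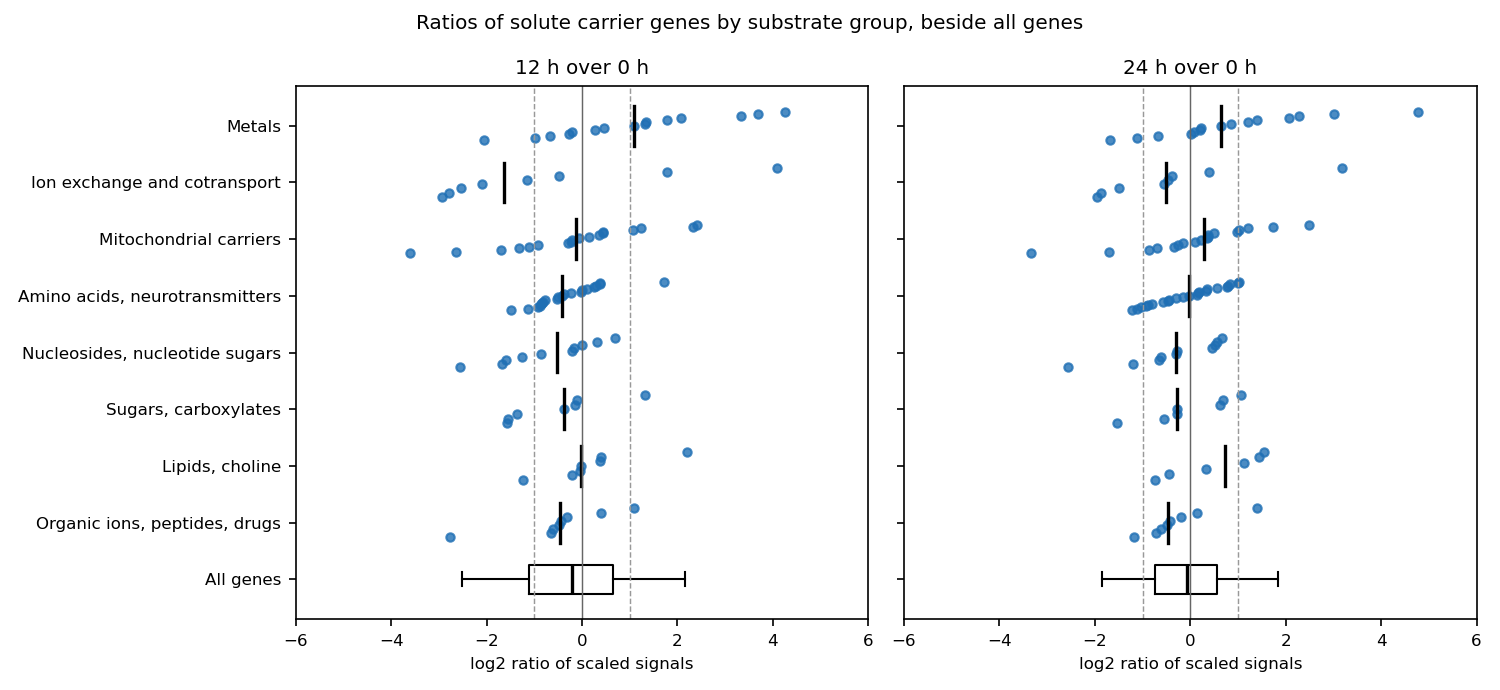
Log2 ratios of scaled signals for 12 h over 0 h (left) and 24 h over 0 h (right) in 8 substrate groups; each point is 1 gene with a ratio, bounds included, the thick bar is the group median, and the box at the bottom shows all genes by median, quartiles and the 5th to 95th percentile. Metals have a median of 1.09 at 12 h and 0.65 at 24 h, and ion exchange and cotransport of -1.63 and -0.50, beside -0.21 and -0.08 over all genes; the ion exchange bar at 12 h rests on 8 of 17 genes and is -0.49 with the floor at the 20th percentile.

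Over all solute carriers the counts lay near those of all genes. For 12 h over 0 h, 18 of 105 members were higher by 2-fold or more (17.1%) and 25 lower by 2-fold or more (23.8%), beside 17.7% and 27.3% of all genes. The median log2 ratio of members was -0.28. For 24 h over 12 h, 17 of 102 were higher (16.7%) and 9 lower (8.82%), beside 18.8% and 12.0%, with a median of 0.27, beside 0.17. For 24 h over 0 h, 18 of 106 were higher (17.0%) and 15 lower (14.2%), beside 14.5% and 17.7%, with a median of 0.06. These comparisons share arrays with each other. With values as deposited the members counted higher and lower were 12 and 52, 12 and 14, and 6 and 47, in the same order of comparisons.

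Among the 71 members above the floor on all arrays, the lowest signal was at 0 h for 23, at 12 h for 37 and at 24 h for 11. These are 32.4%, 52.1% and 15.5%, beside 33.6%, 41.9% and 24.5% of 4682 such genes. The highest signal was at 0 h for 27, at 12 h for 16 and at 24 h for 28. These are 38%, 22.5% and 39.4%, beside 39.2%, 31.5% and 29.3% of all such genes. For 29 of the 71 the highest and lowest signals were less than 2-fold apart (40.8%), beside 38.5% of all such genes. The ATP-driven ABC transporters, another class of carriers, had 1 of 15 higher by 2-fold or more (6.67%) and 7 lower by 2-fold or more (46.7%) at 12 h over 0 h, beside 17.7% and 27.3% of all genes and 17.1% and 23.8% of the solute carriers. Their median log2 ratio was -0.27.

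Error could be gauged only where a gene had several probe sets. Of the 150 genes, 29 had more than 1. For 12 h over 0 h, 5 of them had 2 sets above the floor on both arrays, and in 3 the sets gave the same direction. Over all genes with several such sets it was 378 of 672. In 24 h over 0 h it was 5 of 6, beside 390 of 748 over all such genes. Sets of 1 gene thus often differed in direction on these arrays. Around the mean of their gene, log2 ratios of single sets had an SD of 1.76 and 1.32 in these comparisons, beside 1.24 and 1.07 over 672 and 748 genes of the whole array. A 2-fold difference, a log2 ratio of 1, is therefore smaller than this spread in both comparisons. For 24 h over 12 h the SD was 0.66, beside 0.82 over 687 genes of the whole array, so 2-fold exceeds it. There, however, the sets gave the same direction in only 2 of 5 members, beside 407 of 687 over all such genes. The ratios of Slc31a1, Slc12a2, Slc39a6 and Slc39a8 for 12 h over 0 h exceed the SD of 1.76. They are the highest measured ratios of that comparison, so exceeding it lends them no support. Slc25a51 at 2.40 exceeds it too, although its second set gave -0.09. Slc31a1 is also among the genes whose sets disagree in size, and Slc12a2, Slc39a6 and Slc39a8 have 1 probe set each.

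**Figure D4:**
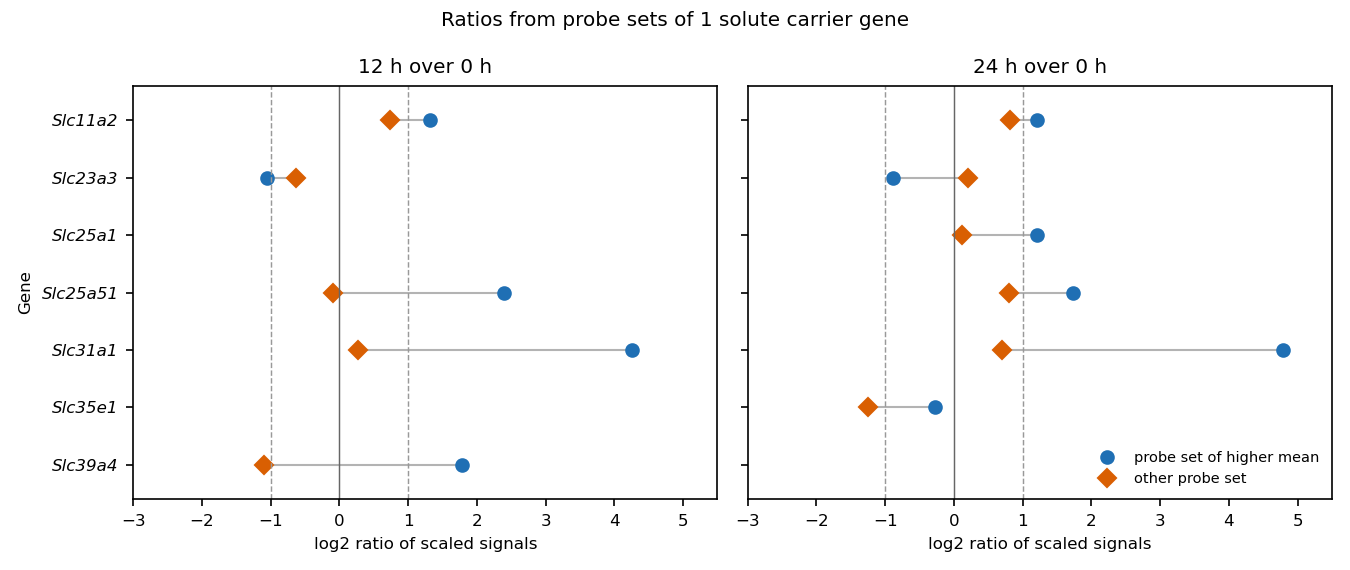
Log2 ratios of scaled signals for 12 h over 0 h (left) and 24 h over 0 h (right) from the probe sets of solute carrier genes with 2 sets above the floor on both arrays; circles are the set with the higher mean, diamonds the other. Slc39a4 has ratios of 1.78 and -1.10 at 12 h, Slc31a1 of 4.25 and 0.27, and Slc11a2 of 1.32 and 0.74.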

How the data were processed

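Each of the 3 samples was measured on 1 Affymetrix mouse array. The authors deposited 1 signal intensity per probe set; per the labels' protocols, Microarray Suite 5.0 and GeneSpring 6.0 were used, and their scaling is not stated there. Controls (66 of 12488 probe sets) were left out. The platform annotation named 1 gene for 10833 probe sets, several for 396 and none for 1193, and probe sets with several or none were not used. All 150 member genes matched the RefSeq table (GRCm38.p6).

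Each array was scaled to a common mean trimmed by 2% at each side, floored at the pooled 40th percentile and put on the log2 scale. A gene took its probe set of highest mean signal. No test was made, there being 1 array at each time, and a difference was counted from 2-fold up over the whole table. The ratio step was tested on simulated data. Tools were Python 3.11.15, numpy 2.4.6, pandas 2.3.3 and matplotlib 3.10.9.

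Substrate groups follow the family number. Every member could be named. Values were given mainly for the brightest members, the largest ratios, members with several probe sets and the brightest of each group and list. This was not followed throughout. Slc23a3, Slc6a2, Slc25a14 and Slc35e4 were left out, as were the list genes Stom and B2m, while some dimmer list genes were given. Members and lists were chosen with earlier results of these data known. Alternatives were other scalings, floors, probe set rules and a 3-fold rule.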

Additional observations from a re-analysis of the deposited data

How the results depend on the processing

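No paired analysis was possible because each time point had 1 array. Of 2048 single-gene values under the alternatives 1962 stayed past 2-fold or moved by less than the SD between probe sets, 84 moved further and 2 reversed: without cross-hybridizing suffixes the log2 ratio at 12 h over 0 h was -0.09 for Slc25a51 and -1.10 for Slc39a4. Using values as deposited, median centring or scaling from 2 arrays shifts the measured ratio of a probe set by less than this SD. None of these could thus count as a move of such a ratio. With values as deposited, Slc25a4 at 12 h over 0 h went from 1.06 to 0.37. For the 121 members with 1 probe set, the probe set rules leave the value as it was or give none. The 1962 is therefore no measure of how stable the values are. With values as deposited, members lower numbered 52 at 12 h against 0 h, 14 at 24 h against 12 h and 47 at 24 h against 0 h (the all-gene medians being -0.83, -0.12 and -0.98), members higher at 24 h over 0 h 6, and metal carriers higher at 12 h 5. With the floor at the 60th percentile, members lower were 14, 5 and 9, members higher at 24 h over 12 h 10, and ion exchangers lower at 12 h 3. With the floor at the 20th percentile, 28 were higher at 24 h over 12 h. With no floor 30, 37 and 30 were higher and 47, 18 and 30 lower, in the same order of comparisons. With the mean over probe sets 5 were lower at 24 h over 12 h. With a 3-fold rule 11, 6 and 7 were higher and 13, 1 and 7 lower, and 5 metal carriers were higher at 12 h. The group alternatives were added after the values were seen. Of members at least 2-fold higher, 6 of 18, 9 of 17 and 5 of 18 kept this under all 9 alternatives that keep the 2-fold rule, and of those lower 8 of 25, 2 of 9 and 6 of 15. Why the rest did not was not tested, and an alternative that gave no value counted as not keeping it. Some of the rest lay far above the floor, such as Slc39a7, whose lowest log2 ratio for 24 h over 0 h was 0.39.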
